A study of Mus musculus with 45 samples.

Results

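Sprouty, Spred and dual-specificity phosphatase (Dusp) genes encode proteins that restrain the pathway from growth factor receptors through Ras to the MAP kinase ERK. The 10 genes described here are Spry1, Spry2, Spry4, Spred1, Spred2, Dusp1, Dusp4, Dusp5, Dusp6 and Dusp10, found by symbol among the 24918 gene entries of the count table, and all 10 were among the 12961 entries with enough reads to be tested. They were chosen with earlier results of these data known, in which Spry1 was lower in obese and in formerly obese mice, and Dusp1 and Dusp5 in formerly obese mice, than in control mice. Their differences from control mice are therefore given as descriptions, without p-values.

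In the gut, as elsewhere, EGF and FGF family ligands bind receptor tyrosine kinases, Ras then recruits Raf kinases, and Raf activates ERK through the kinase MEK. Active ERK induces many genes, among them genes whose products turn the pathway off: Sprouty proteins act near the receptor and adaptor level, Spred proteins bring the Ras inhibitor neurofibromin to the membrane, and Dusp proteins remove phosphate from ERK, JNK or p38. In the colon this pathway is known for driving division of crypt cells, and Sprouty and Dusp transcripts are commonly read as an output of ERK.

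Messenger RNA was sequenced from colonic epithelium of male C57BL/6 mice (C57BL/6J in the study's methods) that started their diets at 6 weeks of age, with 5 mice in each of 3 groups. Control mice (LF) ate a 10% fat diet for 20 weeks, obese mice (HF) a 60% fat diet for 20 weeks, and formerly obese mice (HFLF) the high-fat diet for 15 weeks followed by the low-fat diet for 5 weeks. Fat in both diets came from lard, all groups shared sex, strain and total time on diet, and no genetic change was introduced. Each library came from the epithelium of a whole colon stripped from the tissue beneath, so regions of the colon were not separated. Methylation came from whole-genome bisulfite sequencing (WGBS) of 15 further libraries of the same 3 groups, of which the region list used here compares the 5 obese with the 5 control mice.

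The libraries held 15230391 to 22762095 counted reads, formerly obese mouse 3 being the deepest. Epithelial markers were high, with colonocyte genes summing to 8813 to 18073 CPM (counts per 1000000 reads, with library sizes scaled by edgeR's TMM method) and goblet cell genes to 6108 to 8940 CPM. The 6 smooth muscle genes summed to at most 2.70 CPM, and the 4 adipocyte genes to at most 0.374 CPM. Fibroblast genes summed to 2.34 to 17.4 CPM in 14 libraries and to 30.7 CPM in formerly obese mouse 3, and endothelial genes to 8.30 to 15.7 CPM. The 7 immune genes summed to 24.4 to 102 CPM in 14 libraries and to 285 CPM in formerly obese mouse 4. In such bulk samples, fewer cells of a type and less RNA per cell cannot be told apart.

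Divided by exon length, the levels in control mice covered a wide range. Dusp1 led at 66.4 CPM per kb, followed by Spred2 at 19.6, Spry2 at 18.4 and Dusp6 at 15.4 CPM per kb. Spred1 (7.60 CPM per kb) and Spry1 (5.64 CPM per kb) stood in the middle, and Dusp5 (2.31), Dusp4 (1.78), Dusp10 (1.13) and Spry4 (0.53 CPM per kb) were low. Neighbours in the upper part of this order, such as Spred2 and Spry2, lay within the mouse-to-mouse spread, since the coefficient of variation over control mice was 4.49% for Spred2 and 10.78% for Spry2. Spry4 rested on 15 to 72 reads per library, Dusp10 on 35 to 89 and Dusp5 on 38 to 94, so these values carry the most counting error.

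**Figure D1:**
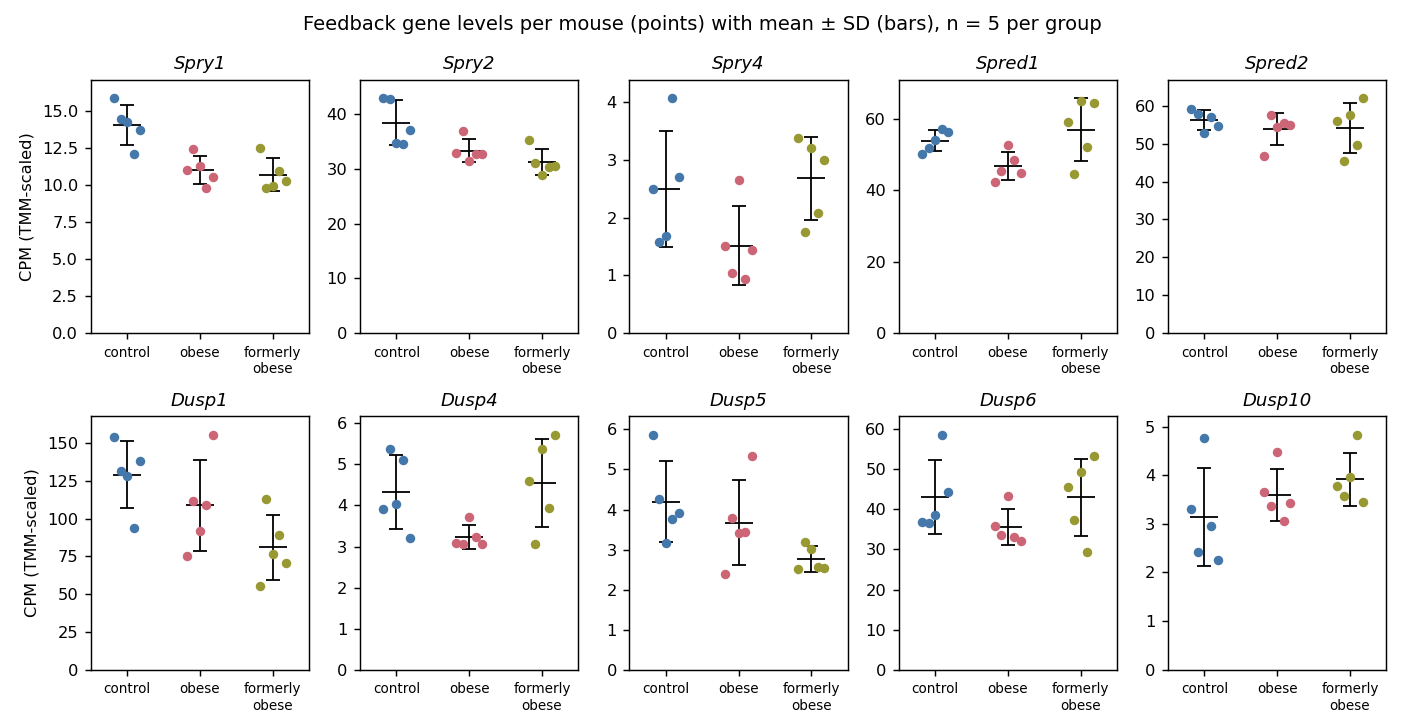
Level of each feedback gene (vertical axis, TMM-scaled CPM, starting at 0) in each of 5 control, 5 obese and 5 formerly obese mice (points), with the group mean and SD (bars). Spry1 had 4 of 5 obese and 4 of 5 formerly obese mice below every control mouse, while Spry4, Spred1, Dusp4 and Dusp6 had their lowest group mean in obese mice.

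Obese mice were first set against control mice, which asks what the high-fat diet itself was accompanied by. Spry1 was the only feedback gene past the study's cutoffs (fold change over 1.2, p under 0.01 and adjusted p under 0.25), which 0.864% of all tested genes passed in the lower and 0.718% in the higher direction. Fitted values were lower in 9 of the 10 genes, with a median log2 fold change of -0.23 against 0.00 over all tested genes, of which 49.9% were lower. No gene separated the groups fully, whereas 1.26% of tested genes had every obese mouse below every control mouse. Nothing is read from these counts, because the same contrast entered the choice of genes.

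Spry1, a Sprouty gene whose protein restrains receptor signalling, lies at chr3:37639950-37644599 on the plus strand of mm10. Its levels in control mice 1 to 5 were 15.8, 14.4, 14.3, 12.1 and 13.7 CPM. In obese mice 1 to 5 they were 11.01, 12.4, 11.3, 9.79 and 10.5 CPM, and in formerly obese mice 1 to 5 they were 12.5, 9.78, 9.92, 10.96 and 10.2 CPM. Control mouse 4 was the lowest of its group, and overlapped with obese mouse 2 and formerly obese mouse 1, the highest of theirs. Its mean was 14.1 ± 1.36 CPM (SD, n = 5) over control mice, 10.997 ± 0.97 over obese mice and 10.7 ± 1.10 over formerly obese mice. The log2 fold change against control was -0.35 ± 0.09 (SE) in obese and -0.40 ± 0.09 in formerly obese mice.

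Spry2 (chr14:105891947-105896819, minus strand), whose protein is known to bind the adaptor Grb2 and the ubiquitin ligase Cbl, was the more abundant relative. Its levels were 42.9, 42.8, 34.7, 34.6 and 37.1 CPM in control mice 1 to 5. Obese mice 1 to 5 had 32.9, 36.9, 31.5, 32.7 and 32.7 CPM, and formerly obese mice 1 to 5 had 35.2, 31.1, 28.9, 30.4 and 30.5 CPM. Again 4 of 5 mice of either group lay below all control mice, with obese mouse 2 and formerly obese mouse 1 above the lowest controls. The log2 fold change against control was -0.20 ± 0.07 (SE) in obese mice, short of the cutoffs, and -0.30 ± 0.07 in formerly obese mice, past them. Formerly obese and obese mice were not called different for Spry1 (log2 -0.04, 95% interval -0.24 to 0.15, edgeR adjusted p = 0.887) or Spry2 (log2 -0.09, interval -0.25 to 0.06, edgeR adjusted p = 0.624).

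The obese call for Spry1 was lost without control mouse 1 (log2 -0.31), control mouse 2 (-0.34), obese mouse 3 (-0.36), obese mouse 4 (-0.32) or obese mouse 5 (-0.34). In formerly obese mice Spry1 was called in all 15 fits that left out a library. Spry2 was lost there without control mouse 1 (log2 -0.26) or control mouse 2 (log2 -0.26), the mice with its highest levels.

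Formerly obese mice were then set against control mice, which asks what differed from control 5 weeks after the diet was changed. No mice were sampled at the change of diet. Here 4 of the 10 genes were called, Spry1, Spry2, Dusp1 and Dusp5, and each was lower in formerly obese mice, beside 1.87% of all tested genes called lower and 1.85% called higher. With 0.05 as the limit of the adjusted p and any fold change, Spry1 and Spry2 remained, beside 2.18% of all tested genes. The other 6 genes lay on both sides of 0, so that the median over the 10 genes was a log2 fold change of -0.03, and -0.00065 over all tested genes. No gene separated the groups fully (1.87% of tested genes did in the lower direction). Nothing is read from these counts either, because lower Spry1, Dusp1 and Dusp5 in this contrast entered the choice of genes.

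Dusp1 (chr17:26505591-26508472, minus strand) encodes an inducible nuclear phosphatase for p38, JNK and ERK, and is itself an immediate early gene. Its levels were 154, 131, 128, 93.8 and 138 CPM in control mice 1 to 5. Obese mice 1 to 5 had 75.4, 112, 92.1, 109 and 155 CPM, and formerly obese mice 1 to 5 had 55.7, 113, 76.4, 89.0 and 70.8 CPM. The obese group thus ran from the level of the formerly obese mice to that of the highest control mice. Among formerly obese mice 4 of 5 lay below every control mouse, and mouse 2 was the exception. Against control its log2 fold change was -0.67 ± 0.19 (SE) in formerly obese and -0.25 ± 0.18 in obese mice.

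Dusp5 (chr19:53529318-53541322, plus strand) encodes a nuclear phosphatase selective for ERK. It was read at 5.86, 4.26, 3.16, 3.75 and 3.92 CPM in control mice 1 to 5. Obese mice 1 to 5 had 2.39, 3.79, 3.42, 3.43 and 5.34 CPM, and formerly obese mice 1 to 5 had 2.505, 3.20, 3.03, 2.58 and 2.54 CPM. Obese mouse 1 was lowest and obese mouse 5 highest of their group for Dusp5, as for Dusp1. Fitted against control, it changed by log2 -0.60 ± 0.20 (SE) in formerly obese and -0.19 ± 0.19 in obese mice.

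Dusp1 was called in formerly obese mice in all 15 fits that left out a library. Dusp5 was not called without control mouse 1 (log2 -0.45), control mouse 2 (-0.59), control mouse 5 (-0.62), formerly obese mouse 1 (-0.56), formerly obese mouse 4 (-0.57) or formerly obese mouse 5 (-0.57). Removing the trend with GC content also ended its call (log2 -0.51). Formerly obese and obese mice were not called different for Dusp1 (log2 -0.43 ± 0.19 SE, edgeR adjusted p = 0.323) or Dusp5 (log2 -0.41 ± 0.20 SE, edgeR adjusted p = 0.392), although Dusp1 was called without formerly obese mouse 2 (log2 -0.57).

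**Figure D2:**
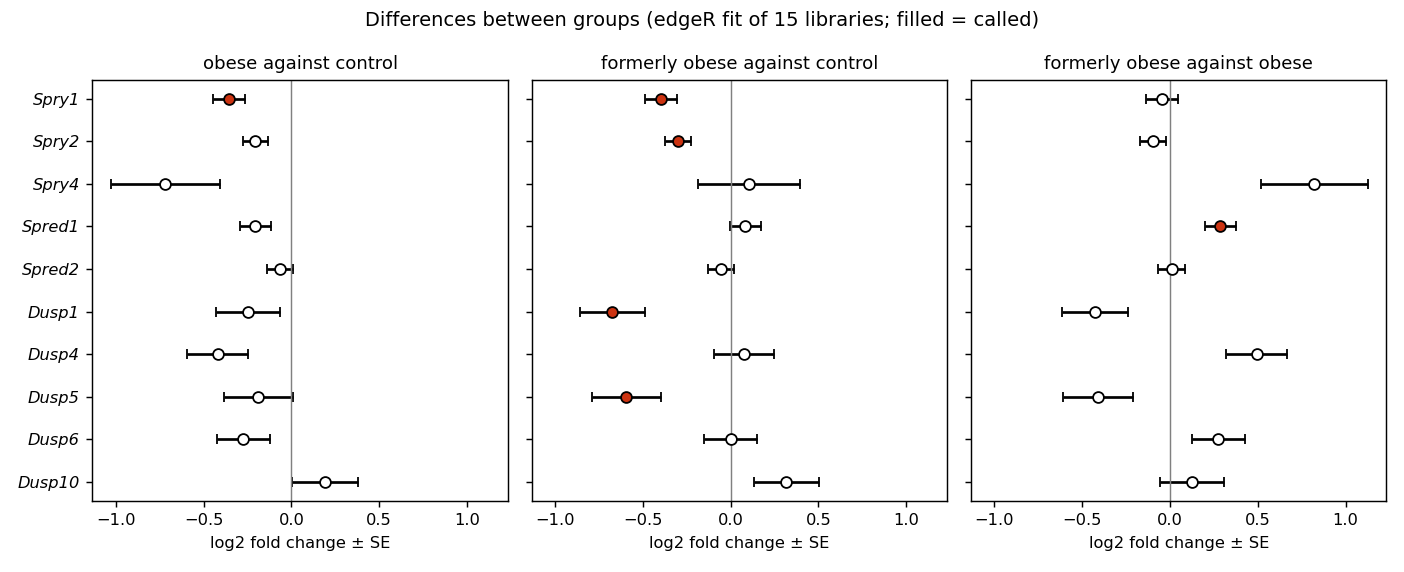
Fitted log2 fold changes (horizontal axis, point) with their standard errors (bars) for the 10 feedback genes in the 3 comparisons, from an edgeR fit of all 15 libraries, with filled points for genes past the study's cutoffs. Spry1 and Spry2 lie left of 0 in both comparisons with control mice, Dusp1 and Dusp5 are lowest in formerly obese mice, and Spry4, Spred1, Dusp4 and Dusp6 lie left of 0 in obese and right of 0 in formerly obese against obese mice.

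The promoters of Dusp1 and Dusp5 are shown because both genes are known to be rapidly inducible and were called together in formerly obese mice. RefSeq sequences from 250 bases before to 50 bases after the start site (GRCm38.p6) were matched for 8 of the 10 genes, all except Spry4 and Dusp4. In the Dusp1 promoter (chr17:26508423-26508722, minus strand), capitals mark the cAMP response element TGACGTCA and the hexamer TGACGT, which forms part of it. In the Dusp5 promoter (chr19:53528895-53529194, plus strand, a start site 173 bases upstream of the one in the count table), capitals mark a pair of adjoining CArG boxes, the letters bound by serum response factor, and the hexamer TGACGT on the other strand.
Dusp1: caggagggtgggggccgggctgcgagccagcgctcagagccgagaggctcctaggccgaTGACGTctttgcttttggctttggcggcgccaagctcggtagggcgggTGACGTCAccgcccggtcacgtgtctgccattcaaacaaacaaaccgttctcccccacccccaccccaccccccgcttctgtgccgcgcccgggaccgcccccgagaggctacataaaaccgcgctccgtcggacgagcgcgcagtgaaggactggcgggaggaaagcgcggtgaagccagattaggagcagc
Dusp5: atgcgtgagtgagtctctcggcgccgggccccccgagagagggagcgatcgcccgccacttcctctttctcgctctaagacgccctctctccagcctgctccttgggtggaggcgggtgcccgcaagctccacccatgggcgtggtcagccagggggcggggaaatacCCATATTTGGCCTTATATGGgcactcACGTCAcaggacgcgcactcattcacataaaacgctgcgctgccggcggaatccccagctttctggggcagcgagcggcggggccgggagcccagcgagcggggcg

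The full cAMP response element of Dusp1 began 143 bases before the start site, and another hexamer at 191 bases. The CArG boxes of Dusp5 began 82 and 72 bases before the start site and its hexamer at 56 bases. On both strands of 32851 RefSeq promoters, TGACGTCA stood in 1.79%, TGACGT in 7.51% and a CArG box in 1.63%. Among the other 6 promoters matched, the Spred2 promoter held the hexamer, 52 bases before the start. None of the 8 held the AP-1 letters TGAGTCA, which stand in 5.2% of all promoters, or the ETS letters CCGGAAG, which stand in 8.86%. None held the EGR letters GCGGGGGCG, which stand in 2.91% of all promoters, or the box of letters TATAAA, which stands in 13.6%. These are matches of letters, and binding was not measured.

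The comparison of formerly obese with obese mice was not one the genes were chosen on, although it shares its libraries with those that were. It called Spred1, higher in formerly obese mice (log2 0.29 ± 0.09 SE, edgeR adjusted p = 0.152), where 1.23% of all tested genes were called higher and 1.42% lower. No gene separated these groups fully, whereas 1.49% of tested genes had every formerly obese mouse above every obese mouse. Over the 10 genes the median log2 fold change was 0.07, against 0.00 over all tested genes. Spry4, Dusp4 and Dusp6 had fitted differences in the same direction without reaching the cutoffs. The choice of Spry1, Dusp1 and Dusp5 drew on the formerly obese libraries, so their values here are not free of it.

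Spred1 (chr2:117121071-117182277, plus strand) encodes a membrane protein that hands neurofibromin to Ras. Its levels were 50.2, 51.7, 53.9, 57.2 and 56.2 CPM in control mice 1 to 5. Spred1 in obese mice 1 to 5 was at 42.3, 45.4, 52.6, 48.3 and 44.9 CPM. Formerly obese mice 1 to 5 had 59.0, 44.5, 65.0, 52.0 and 64.2 CPM. In the formerly obese group mice 1, 3 and 5 stood above all obese and all control mice, while mice 2 and 4 stood within the range of the obese mice. The log2 fold change against control was -0.20 ± 0.09 (SE) in obese and 0.08 ± 0.09 in formerly obese mice. The Spred1 call against obese mice was lost without obese mouse 1 (log2 0.26), obese mouse 2 (0.28), obese mouse 5 (0.27), formerly obese mouse 1 (0.27), formerly obese mouse 3 (0.23) or formerly obese mouse 5 (0.24). It was also lost with the GC trend removed (0.25), with only the compared groups fitted (0.29) and at an adjusted p under 0.05.

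Spry4, a Sprouty gene on chromosome 18, had the largest fitted difference and the fewest reads. Control mice 1 to 5 had 2.49, 1.57, 1.67, 4.06 and 2.70 CPM. Levels in obese mice 1 to 5 were 1.51, 1.04, 2.65, 0.94 and 1.44 CPM, and formerly obese mice 1 to 5 had 3.38, 1.75, 3.20, 2.08 and 3.00 CPM. Obese mouse 3 lay among the formerly obese mice and the other obese mice below all of them. The log2 fold change of formerly obese against obese mice was 0.82 ± 0.30 (SE, edgeR adjusted p = 0.235), and the unadjusted p missed its cutoff. It passed them under DESeq2 (log2 0.83), and without control mouse 4 (0.82), obese mouse 3 (1.13) or formerly obese mouse 2 (0.94).

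Dusp4 (chr8:34807610-34819894, plus strand) encodes an inducible nuclear phosphatase of ERK and JNK. Control mice 1 to 5 had 3.92, 5.37, 4.03, 5.11 and 3.22 CPM. The obese mice 1 to 5 had 3.08, 3.06, 3.72, 3.24 and 3.06 CPM, and formerly obese mice 1 to 5 had 4.60, 3.07, 5.39, 3.95 and 5.71 CPM. The obese mice lay close together, and 4 of 5 formerly obese mice stood above all of them. Formerly obese against obese mice differed by log2 0.50 ± 0.17 (SE, edgeR adjusted p = 0.211), and the unadjusted p missed its cutoff. The cutoffs were passed under DESeq2 (log2 0.50) and with the GC trend removed (0.51). They were also passed without control mouse 2 (0.50), control mouse 5 (0.49), obese mouse 3 (0.55), formerly obese mouse 2 (0.61) or formerly obese mouse 4 (0.54).

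Dusp6 (chr10:99263231-99267489, plus strand) encodes the cytoplasmic phosphatase selective for ERK and is among the most used transcript readouts of that kinase. Control mice 1 to 5 had 36.9, 36.6, 38.7, 58.5 and 44.3 CPM. Obese mice 1 to 5 had 35.7, 33.5, 43.4, 33.0 and 32.2 CPM, and formerly obese mice 1 to 5 had 45.6, 37.4, 49.4, 29.3 and 53.2 CPM. Control and formerly obese means were both 43.0 CPM, with a log2 difference of 0.00066 ± 0.15 (SE) and an SD of 9.18 and 9.61 CPM, against 4.58 CPM in obese mice. Between formerly obese and obese mice the log2 fold change was 0.27 ± 0.15 (SE, edgeR adjusted p = 0.459), with a 95% interval of -0.04 to 0.59.

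Spred2 and Dusp10 moved least between groups relative to their spread. Spred2 (chr11:19924442-20022597, plus strand), the Spred1 relative, had 45.5 to 61.9 CPM over the 15 mice and means of 56.3 CPM over control, 53.8 over obese and 54.1 over formerly obese mice. Its log2 fold change of formerly obese against obese mice was 0.01, with a 95% interval of -0.15 to 0.17 (edgeR adjusted p = 0.980). Dusp10 (chr1:184034461-184075636, plus strand) encodes a phosphatase that prefers p38 and JNK to ERK. It was the only one of the 10 with a higher fitted value in obese than in control mice (log2 0.19 ± 0.19 SE), with 2.25 to 4.82 CPM over the 15 mice. Its log2 fold change of formerly obese against control mice was 0.32 ± 0.18 (SE), called only without control mouse 3 (log2 0.52).

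Across the 15 mice 8 of the 10 genes formed sets that varied together, described here by Pearson's r of log2 CPM over 45 pairs, with no test, since the mice share the diet groups and the sets were named after their values were seen. The highest r was that of Spry1 with Spry2, at 0.88 (Spearman's rho 0.86), and at 0.74 after each group's mean was removed. Dusp1 followed Dusp5 with r = 0.85 (rho 0.89), and with 0.74 after group means were removed. Spry4 followed Dusp6 (r = 0.81, rho 0.85, 0.78 after group means were removed) and Spred1 followed Dusp4 (0.82, 0.81 and 0.71). Spred1 also followed Dusp6 (0.76, 0.78 and 0.71). Leaving out the 2 mice farthest from the median of the first gene named, r was 0.80 for Spry1 with Spry2, 0.83 for Dusp1 with Dusp5, 0.82 for Spry4 with Dusp6, 0.71 for Spred1 with Dusp4 and 0.65 for Spred1 with Dusp6. Between sets the relation could be inverse, as for Spred1 with Dusp1 (r = -0.44, rho -0.41, -0.50 after group means were removed), where r was -0.22 without the 2 mice farthest from the median of Spred1. Dusp10 belonged to no set, its r with the other 9 genes running from -0.57 with Spry2 to 0.05 with Spry4. Spred2 was placed in none, although it varied with Spred1 (r = 0.59, rho 0.41, 0.73 after group means were removed) and Dusp4 (0.58, 0.49 and 0.68). Without the 2 mice farthest from the median of Spred1, r of Spred1 with Spred2 was 0.46. Without the 2 farthest from the median of Spred2, its r with Dusp4 was 0.44.

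**Figure D3:**
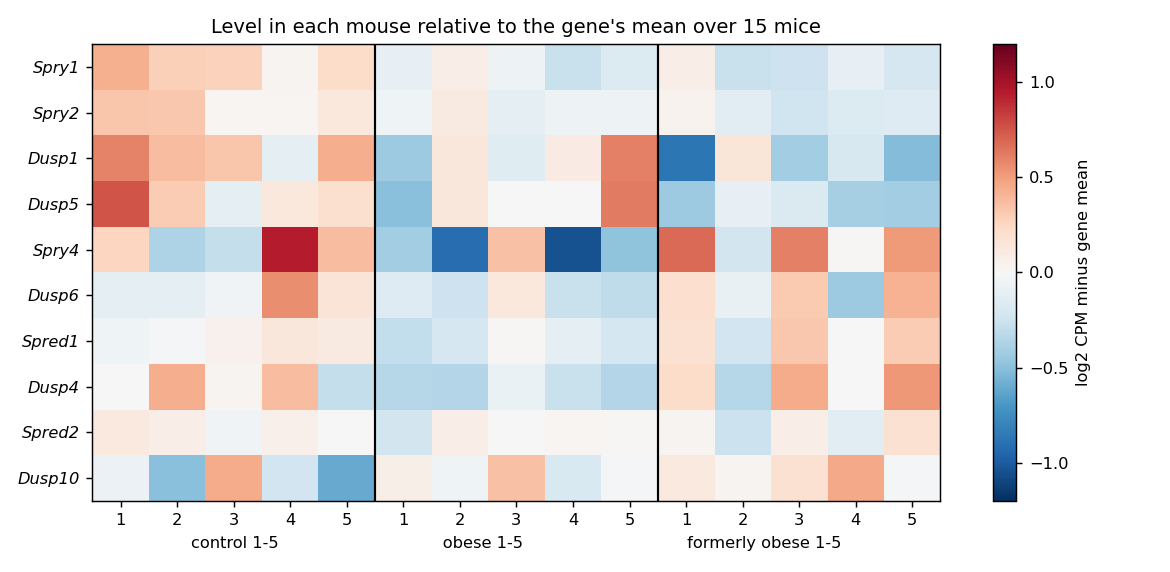
Level of each feedback gene (rows) in each of 15 mice (columns, 5 per group), as log2 CPM minus the gene's mean over all mice, with red for higher and blue for lower. Spry4, Dusp6, Spred1 and Dusp4 were above their means in control mouse 4 and in formerly obese mice 1, 3 and 5, and Dusp1 and Dusp5 were lowest in obese mouse 1 and formerly obese mice 1 and 5.

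Marker genes varied over the same mice. The 6 proliferation genes summed to 379 to 581 CPM in control, 388 to 546 CPM in obese and 376 to 718 CPM in formerly obese mice, formerly obese mice 3 and 5 being the highest of the 15. Their summed log2 level followed Spred1 with r = 0.77 (rho 0.76, 0.80 after group means were removed), Dusp6 with 0.69 (0.70 and 0.69), Spry4 with 0.68 (0.66 and 0.68) and Dusp4 with 0.54 (0.58 and 0.50). The 7 colonocyte genes summed to 8813 to 14933 CPM in control, 9632 to 14738 CPM in obese and 12355 to 18073 CPM in formerly obese mice. Colonocyte levels ran against Dusp1 (r = -0.77, rho -0.675, -0.57 after group means were removed) and Spry2 (-0.71, -0.70 and -0.54). They also followed the genes that followed proliferation: Spred1 (0.66, 0.65 and 0.77), Spry4 (0.64, 0.68 and 0.79), Dusp6 (0.59, 0.56 and 0.79) and Dusp4 (0.48, 0.45 and 0.53). Without the 2 mice farthest from the median marker level, r was 0.64 for Spred1, 0.71 for Dusp6, 0.68 for Spry4 and 0.36 for Dusp4 with proliferation genes, and -0.66 for Dusp1 and -0.77 for Spry2 with colonocyte genes. For Spred1, Spry4, Dusp6 and Dusp4 with colonocyte genes it was 0.49, 0.52, 0.50 and 0.31. The part of cell composition in the differences between groups was not tested.

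The genes whose pattern was most like 3 of the feedback genes were sought among 10412 others with a mean of at least 5 CPM, by Pearson's r of log2 CPM over the 15 mice. For Dusp1 they were Atf3 (r = 0.94, rho 0.925), Btg2 (0.93, 0.91) and Fosb (0.92, 0.94), and r after group means were removed was 0.90, 0.87 and 0.86. For Spry1 they were Lrpap1 (0.89, 0.80), Spry2 and Repin1 (0.88, 0.94), and r after group means were removed fell to 0.62, 0.74 and 0.77. For Dusp6 they included Sgol2 (0.90, 0.825) and Acsf2 (0.89, 0.87), with r of 0.91 and 0.90 after group means were removed. Without the 2 mice farthest from the median of the feedback gene, r was between 0.80 and 0.95 for these 8 genes. They were picked for the highest r over these same mice, so all these values are descriptions.

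**Figure D4:**
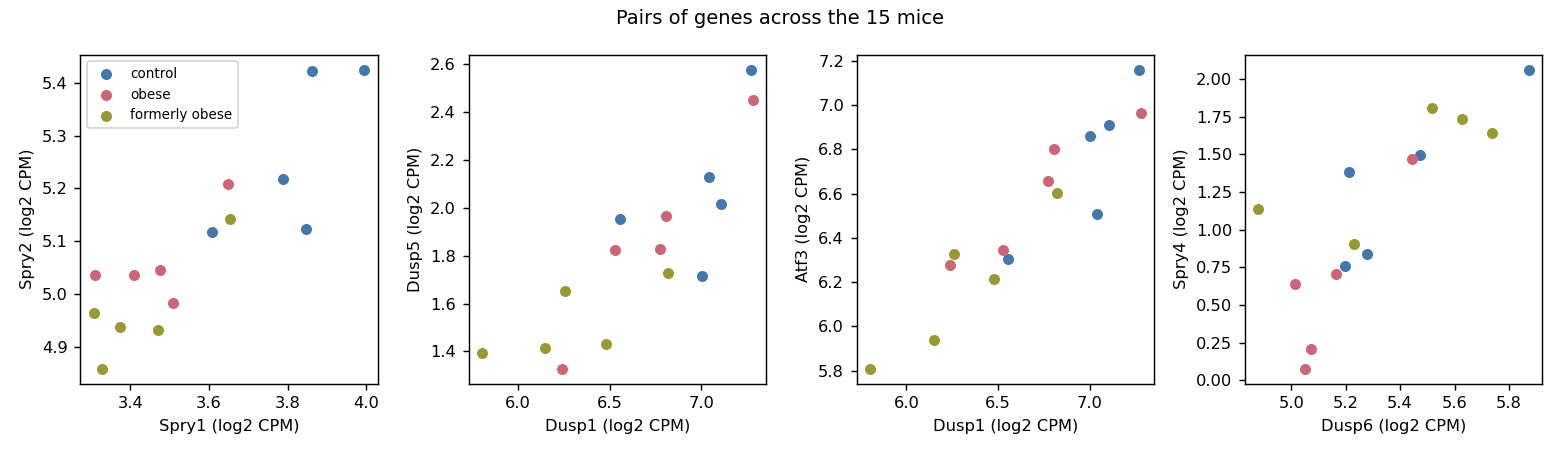
Levels of 4 pairs of genes in the 15 mice (both axes log2 CPM, points coloured by group): Spry1 with Spry2, Dusp1 with Dusp5, Dusp1 with Atf3, and Dusp6 with Spry4. Pearson's r over the 15 mice was 0.88, 0.85, 0.94 and 0.81, and the pairs followed each other within groups as well as across them.

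The rest of the pathway was described with 7 lists of its other genes. These lists, too, were chosen with earlier results of these data known. Adjusted p-values printed for their genes here and below therefore describe the values and are not independent tests. In obese against control mice 0 of the 116 tested genes of these lists were called, beside 1.58% of all tested genes, and Nr4a1, an immediate early nuclear receptor gene, was called when the fit held only the compared groups (log2 -0.54) or under DESeq2 (log2 -0.54). At an unadjusted p under 0.05 the edgeR fit held 9 of the 116 genes, beside 10.9% of all tested genes.

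Receptors, ligands and adaptors held 3 called genes of 23 tested in formerly obese against control mice, each lower, beside 1.87% of all tested genes called lower. Fgfr3, an FGF receptor, was at 70.8 ± 7.28 (SD, n = 5) against 95.1 ± 12.2 CPM in control mice (log2 -0.43 ± 0.08 SE, edgeR adjusted p = 0.0233). Areg, which encodes the EGF receptor ligand amphiregulin, was at 19.7 ± 3.57 against 25.9 ± 4.31 CPM (log2 -0.40 ± 0.12 SE, edgeR adjusted p = 0.105), and was not called with only the compared groups fitted. Fgfr4, at a log2 fold change of -0.26 ± 0.08 (SE, edgeR adjusted p = 0.106), lay at the fold cutoff. It was not called with at least 10 counts in every library, the replicate block, the GC trend removed, only the compared groups or DESeq2. The median of the list was -0.02, and 0 of its genes were called in formerly obese against obese mice, where Areg was called under upper-quartile scaling (log2 -0.36), GC correction (-0.38), only the compared groups (-0.35) and DESeq2 (-0.35). The ERK cascade itself, from Sos to Raf, MEK, ERK and RSK, had 0 of 18 genes called in any comparison, with medians of 0.00, 0.04 and 0.00 in obese against control, formerly obese against control and formerly obese against obese mice.

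Among 18 other brakes on Ras and receptors, Cnksr3, a scaffold gene of the CNK family, was the only one called, beside 3.72% of all tested genes against control and 2.65% against obese mice. It was higher in formerly obese mice, at 50.001 ± 10.1 CPM against 39.1 ± 3.91 in control (log2 0.35 ± 0.12 SE, edgeR adjusted p = 0.119) and 33.2 ± 4.05 CPM in obese mice (log2 0.59 ± 0.12 SE, edgeR adjusted p = 0.0487). The call against control was lost with only the compared groups fitted. Errfi1, an inducible inhibitor of the EGF receptor, had group means of 94.3 CPM for control mice, 99.3 for obese mice and 97.4 for formerly obese mice, with no comparison called (edgeR adjusted p = 0.773 to 0.918). Rasa4, a Ras GTPase activator, had group means of 42.5, 40.7 and 36.7 CPM and was not called either (edgeR adjusted p = 0.370 to 0.897).

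Of 4 other MAP kinase phosphatases tested, Dusp7 was called in formerly obese against control mice, and Dusp7 and Dusp8 against obese mice, beside 1.87% and 1.42% of all tested genes called lower. Dusp7, a relative of Dusp6 that acts on ERK, averaged 7.85 ± 0.93 CPM in control mice, 8.28 ± 1.67 in obese mice and 5.97 ± 0.47 in formerly obese mice, where every mouse lay below every mouse of either other group (1.87% and 1.89% of tested genes were so separated). Its log2 fold change in formerly obese mice was -0.39 ± 0.13 (SE) against control (edgeR adjusted p = 0.121) and -0.47 ± 0.13 against obese mice (edgeR adjusted p = 0.106). Dusp8, a phosphatase of JNK and p38, was lower in formerly obese than in obese mice (log2 -0.44 ± 0.12 SE, edgeR adjusted p = 0.0979). With the GC trend removed, Dusp7 against control and Dusp8 against obese mice were not called. Atypical dual-specificity phosphatases had 0 of 9 and stress kinases 0 of 13 genes called in any comparison.

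ERK target genes held the most calls. This list was written with it known that immediate early genes were lower in formerly obese mice, so its values are a description, without p-values. In formerly obese against control mice 9 of 31 tested were called, each lower, with a list median of -0.20 and 25 of 31 below 0, and 3.72% of all tested genes were called in either direction. In the same comparison 3 of 7 colonocyte and 2 of 3 tested tuft cell markers were called higher (list medians log2 0.34 and 0.37), the tuft markers summing to 29.5 to 43.2 CPM in control and 40.5 to 54.8 CPM in formerly obese mice, and their part in these values was not tested. The called target genes with the smallest p were Ier2 (log2 -0.43 ± 0.08 SE), Nr4a1 (-1.01 ± 0.19), Fosb (-0.92 ± 0.20) and Junb (-0.47 ± 0.12), all immediate early genes. Not called in that comparison were, among others, Egr1 (log2 -0.20), Phlda1 (-0.11), Ccnd1 (-0.09), Etv4 (-0.06), Myc (-0.0039) and Etv5 (0.09). ERK activity was not measured. In formerly obese against obese mice 6 of 31 were called, each lower, with a list median of -0.18, and 2.65% of all tested genes were called. They were led by Junb (log2 -0.58 ± 0.12 SE), Ier2 (-0.37 ± 0.08), Jun (-0.41 ± 0.11) and Plaur (-0.64 ± 0.17), of which Ier2 was not called with the GC trend removed. Both comparisons share the formerly obese libraries. In obese against control mice the list median was 0.00. Among 32 promoters matched for 24 of its genes, TGACGT stood in 7 (Atf3, Btg2, Egr2, Egr4 and Fos), a CArG box in 6 (Egr2, Srf and Zfp36) and the EGR letters in 9, beside the 7.51%, 1.63% and 2.91% of all promoters given above. TATAAA stood in 5, CCGGAAG in 4, TGAGTCA in 1 and TGACGTCA in 1 of the 32.

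DNA methylation was taken from the deposited list of 8199 differentially methylated regions (DMRs) between obese and control mice, of which 4123 were more and 4076 less methylated in obese mice. The list holds no value per mouse and no size of difference, and was not made from the RNA values that chose the genes. Of the 10 genes 3 had a DMR within 50 kb of their start site, namely Spry1, Spred2 and Dusp6, beside 34.8% of all tested genes. Within 10 kb it was Spry1 alone, beside 9.58% of tested genes, and within 100 kb 7 genes, beside 56%. Taking each DMR's nearest start site at any distance gave 6 genes, beside 21.7%. That count has no distance limit and so also depends on how far a gene lies from its neighbours. Spry4, for one, entered it through DMRs 70225 and 90117 bases away. No DMR lay in a promoter of the 10 genes, the nearest being 9162 bases from the start site of Spry1. Distances to the start sites of other genes are not given.

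The nearest DMR is shown because Spry1 was the gene called in both comparisons with control mice. It lay at chr3:37649112-37649255 (plus strand shown, GRCm38.p6), 144 bases between genes, with its centre 9234 bases downstream of the Spry1 start and past the end of the gene, and was more methylated in obese mice. The other regions shown are those within 50 kb of Spred2 and Dusp6, with CG sites in capitals.
Spry1 region: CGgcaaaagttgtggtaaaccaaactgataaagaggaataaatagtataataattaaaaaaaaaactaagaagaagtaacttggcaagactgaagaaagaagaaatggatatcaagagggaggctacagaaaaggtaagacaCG
Spred2 region at 23896 bases: CGttgcttcagaaagggatacCG
Spred2 region at 34591 bases: CGacttgaaatCG
Dusp6 region: CGccaccatcaacCG

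Each of these regions opened and closed with a CG and held no other. The Spred2 regions (chr11:19948327-19948349, less methylated in obese mice, and chr11:19959027-19959039, more methylated) both lay in an intron of Spred2. The Dusp6 region (chr10:99229543-99229557, less methylated in obese mice) lay 33674 bases upstream of the Dusp6 start at its nearest edge, in an intron of Gm34574. Another Spry1 region (chr3:37686527-37686904, less methylated) had its centre 46766 bases downstream, nearer to the start of Gm5148. Spry1, Spred2 and Dusp6 had log2 fold changes of -0.35, -0.06 and -0.27 in obese against control mice, and whether methylation bears on them was not tested.

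**Figure D5:**
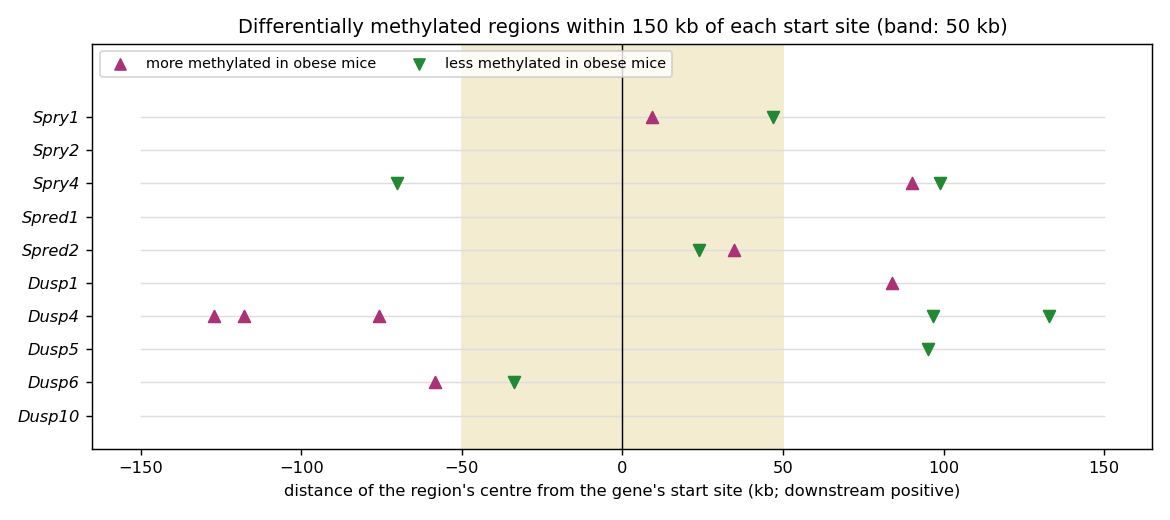
Distance of the centre of each DMR from the start site of each feedback gene (horizontal axis, kb, downstream positive) within 150 kb, with upward triangles for regions more methylated and downward triangles for regions less methylated in obese mice. The band marks 50 kb either side, which holds the regions of Spry1, Spred2 and Dusp6, and Spry2, Spred1 and Dusp10 had none within 150 kb.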

How the data were processed

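Colonic epithelium of 15 mice (5 control, 5 obese, 5 formerly obese) was profiled by mRNA sequencing. The authors prepared stranded TruSeq libraries, mapped reads to mm10 with TopHat2 2.0.4 and counted them per gene with HTSeq, and deposited raw counts for 24918 gene entries. The strand setting and annotation release are not given in the sources used here. The deposited DMR list, made by the authors with Bismark and a Rao-Scott test, gives position and direction only (CpG p under 0.05 and difference over 10%, CpGs within 5000 bases merged, region adjusted p under 0.01, and difference over 30% or fold over 5). Its starts count from 0, since with that reading all 8199 open on a CG. Targeted bisulfite tables, and the authors' columns of fold changes and p-values, were not used.

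The 10 genes and all lists were chosen with earlier results of these data known. Counts were fitted with edgeR 4.0.16 (quasi-likelihood, TMM, expression filter, all 15 libraries, group only, Benjamini-Hochberg over 12961 entries). A gene was called at the study's cutoffs (fold over 1.2, p under 0.01, adjusted p under 0.25). Log2 CPM used a prior count of 2, and the SE of a log2 fold change came from its F statistic. No other gene entry overlapped the locus of any of the 10 genes. Exon lengths and GC content came from RefSeq transcripts. The script was tested on simulated data. From each pathway list the called genes with the smallest p, at most 4 a comparison, were named, with Errfi1, Rasa4 and Dusp7 always. The closest pair of replicates differed by a chi-square of 5.67 per degree of freedom, so all count as separate samples. Alternatives were DESeq2 1.42.0, upper-quartile scaling, other filters, only the compared groups, a replicate block, a GC correction, a stricter threshold and leaving out each library, and for DMRs other distances. Intervals cover the spread between these mice. Library depth was 15230391 to 22762095 reads. For Dusp6, 1 of the 3 genes most like it is not reported here.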

Additional observations from a re-analysis of the deposited data

Results flagged for a closer look

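Of the 30 groups of 5 mice (10 genes in 3 groups), 2 held a mouse far from the other 4 by Dixon's criterion, and chance alone flags about 1 group in 20. Spry2 stood at 36.9 CPM in obese mouse 2, where the other obese mice ran from 31.5 to 32.9 CPM. Dusp4 stood at 3.72 CPM in obese mouse 3, where the other obese mice ran from 3.06 to 3.24 CPM. Neither gene was called in obese against control mice with all libraries, or without the mouse named.

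Spred1 passed the study's cutoffs for a different response in the diet groups: its log2 change against control was higher by 0.29 in formerly obese than in obese mice (edgeR adjusted p = 0.152). The same control libraries enter both changes, so this equals the comparison of formerly obese with obese mice, and 3 of 5 formerly obese mice lay above all obese mice. The call was lost in 6 of 15 fits that left out a library, with the GC trend removed (log2 0.25), with only the compared groups and at an adjusted p under 0.05.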

How the results depend on the processing

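Over 8 other settings with all libraries kept, the number of members called in formerly obese against control mice stayed at 3 or 4, except that it was 2 at an adjusted p under 0.05 without a fold cutoff, and counts within 1.5 times are not listed. In obese against control mice that threshold left 0 members called. In formerly obese against obese mice the member count was 0 at that threshold, 0 with only the compared groups fitted and 3 under DESeq2. Leaving out each of the 15 libraries in turn gave 0 to 1 members called in obese against control, 2 to 5 in formerly obese against control and 0 to 4 in formerly obese against obese mice. Of the other pathway genes, 1 was called in obese against control mice with only the compared groups or under DESeq2, where 0 were called before. At an adjusted p under 0.05 the pathway count was 4 in formerly obese against control and 1 in formerly obese against obese mice. Near-zero differences of formerly obese against obese mice changed sign when a library was left out, between -0.044 and 0.066 for Spred2 and between -0.11 and 0.0020 for Spry1. In formerly obese against control mice the same held for Spry4 (-0.021 to 0.352), Dusp4 (-0.018 to 0.183), Dusp6 (-0.087 to 0.137) and Spred2 (-0.107 to 0.00037), none of them called. Members with a DMR numbered 1 within 10 kb, 7 within 100 kb and 6 by nearest start site. Mice with the same replicate number did not deviate together throughout (r from -0.23 to 0.33, over 0.1 in 5 of 15 pairs, and 5 of 15 correlated best with their own number). Those numbered 2 did so weakly in each comparison (r = 0.20, 0.22 and 0.16) and correlated best with their own number. With the replicate number as a block, 3 members were called in formerly obese against control mice, Dusp5 being lost (log2 -0.59). The cause of these changes was not tested. Depth limits Spry4, Dusp5 and Dusp10 most, at 15 to 94 reads per library.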
